A study of Mus musculus with 8 samples.

Results

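Purinergic receptors sense nucleotides and nucleosides outside the cell, and the 10 genes described here are those of 7 P2 receptors (*P2rx4*, *P2rx7*, *P2ry2*, *P2ry6*, *P2ry12*, *P2ry13* and *P2ry14*), of a pair of adenosine receptors (*Adora2a* and *Adora2b*) and of the enzyme CD39 (*Entpd1*). The members are every probe that the deposited array annotation gives one of these symbols, 20 of the 45281 probes and 10 of the 30789 symbols. They were measured in thioglycollate-elicited peritoneal macrophages, cells that an irritant broth draws into the peritoneal cavity, from C57/BL6 mice aged 8 weeks. 4 samples were incubated with acetylated low-density lipoprotein (Ac-LDL), a modified lipoprotein that loads macrophages with cholesterol, at 120 μg/ml for 24 h, and 4 mock-treated samples were the control. The samples are labelled as biological replicates 1 to 4 of each group, and total RNA of each was hybridized to 1 Illumina mouse bead array. The comparison is between cultured cells of 1 strain at 1 dose and 1 time. Replicates 1 and 2 of both groups lay on 1 bead chip (slide 1) and replicates 3 and 4 on another (slide 2), so that slide and replicate set cannot be told apart. By the array names, controls took positions A and D and Ac-LDL samples B and E on both chips. Treatment and array position cannot be told apart either.

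ATP and other nucleotides leave stressed or dying cells and act on neighbouring cells as signals. P2X receptors are ion channels that ATP opens, whereas P2Y receptors couple to G proteins and answer to ATP, ADP, UTP, UDP or UDP-sugars. CD39 at the cell surface removes phosphates from ATP and ADP, CD73 makes adenosine from the AMP that results, and adenosine acts on receptors that raise or lower cyclic AMP. In macrophages these receptors are known for roles in migration, in the engulfment of dying cells and, for P2X7, in the release of interleukin 1β.

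Between 36.8% and 38.5% of all probes were detected per array (detection p-value of at most 0.05, a rank against the negative controls of the same array), and the first principal component of the tested probes, with 50.2% of the variance, separated the slides. Each member intensity was a mean over 23 to 56 beads. Levels are given below as normalized log2 intensity, after background correction with an offset of 16 and quantile normalization between arrays. Differences in level were taken between arrays for the same probe. Brightness and summed intensities set different probes side by side only as a description. Of the 20 member probes, 9 were detected on all 8 arrays, 1 on 7, 1 on 3, 1 on 1 and 8 on 0 arrays. The 10 probes detected on at least 4 arrays entered the fits and cover 7 genes. *Adora2a*, *Entpd1* and *P2ry12* had no such probe. As the cells were measured in bulk, fewer expressing cells and less RNA per cell cannot be told apart.

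*P2ry13*, which encodes an ADP receptor, lies in a cluster of related receptor genes on mouse chromosome 3 (RefSeq, GRCm38.p6). *P2ry13* spans chr3:59207892-59210882, with *P2ry12*, the gene of a second ADP receptor, at chr3:59216271-59262985 and *P2ry14*, the gene of the UDP-glucose receptor, at chr3:59114623-59153492. All 3 genes lie within the span of *Med12l*, a gene related to a Mediator subunit. The 250 bases before the first RefSeq start of each gene (chr3:59210883-59211132 for *P2ry13*, chr3:59153493-59153742 for *P2ry14* and chr3:59262986-59263235 for *P2ry12*) are printed 5′ to 3′ on the minus strand, the strand of the genes, to set the clustered genes side by side. Capitals mark matches to GAGGAA, the core of the site of the macrophage factor PU.1, or to TGANTCA, the AP-1 site.
P2ry13: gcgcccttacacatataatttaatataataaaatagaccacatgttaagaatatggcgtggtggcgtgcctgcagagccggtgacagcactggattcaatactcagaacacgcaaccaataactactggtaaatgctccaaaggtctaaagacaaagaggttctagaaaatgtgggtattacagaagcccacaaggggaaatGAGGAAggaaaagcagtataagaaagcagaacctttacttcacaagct
P2ry14: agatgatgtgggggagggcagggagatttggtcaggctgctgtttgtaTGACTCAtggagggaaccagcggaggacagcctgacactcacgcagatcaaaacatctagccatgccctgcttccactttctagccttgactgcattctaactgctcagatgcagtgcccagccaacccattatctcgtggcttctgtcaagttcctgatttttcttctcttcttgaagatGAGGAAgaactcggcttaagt
P2ry12: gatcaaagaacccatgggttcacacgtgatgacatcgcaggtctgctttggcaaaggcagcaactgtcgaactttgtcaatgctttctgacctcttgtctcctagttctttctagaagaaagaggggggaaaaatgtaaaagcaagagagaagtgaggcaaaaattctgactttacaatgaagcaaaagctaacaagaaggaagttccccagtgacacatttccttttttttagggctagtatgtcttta
The *P2ry13* window holds 1 GAGGAA, 48 to 43 bases before the start. The *P2ry14* window holds GAGGAA 21 to 16 bases before its start and TGACTCA 202 to 196 bases before it, and no match to either motif lies in the *P2ry12* window. Searched on both strands, GAGGAA is found in 23.3% and TGANTCA in 6.75% of the 32851 mouse promoter windows of this length, and the interferon response motif, which none of these windows holds, in 2.98%. The motifs do not overlap each other here, they were chosen after the sequences had been seen, and a match is a description of the letters. *P2ry14* has 4 annotated starts and the other pair of genes 1 each.

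**Figure D1:**
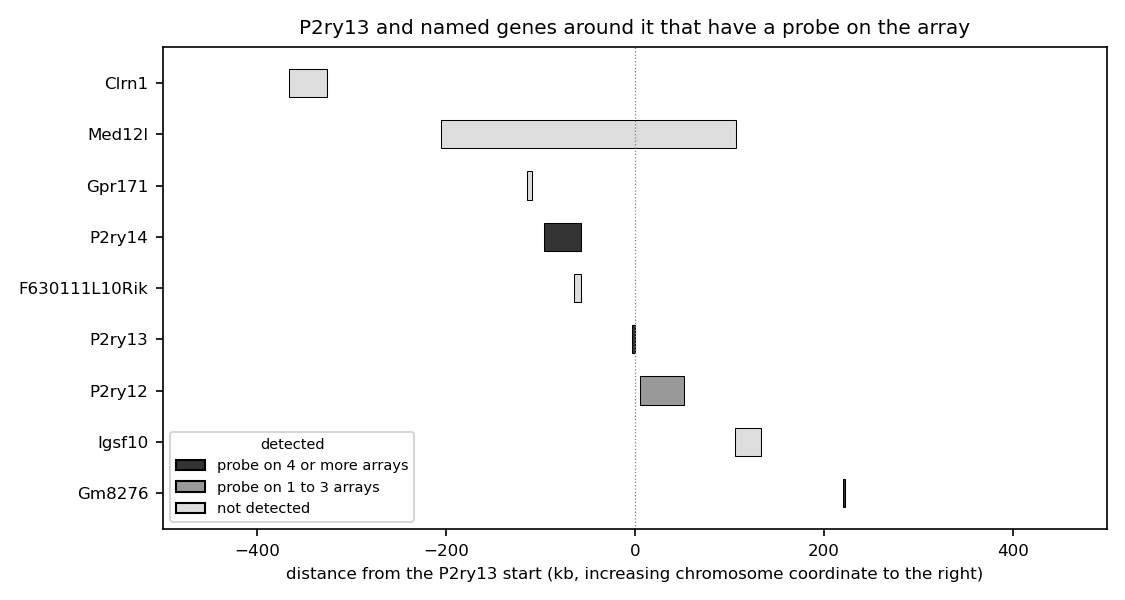
*P2ry13* and the genes named around it that have a probe on the array, one row per gene, drawn to scale by their RefSeq GRCm38.p6 position as distance from the *P2ry13* start in kb. Dark bars are genes with a probe detected on at least 4 arrays, mid-grey bars genes detected on 1 to 3 arrays (*P2ry12*) and pale bars genes detected on none. *P2ry14*, *P2ry13* and the pseudogene *Gm8276* are dark.

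Within the cluster, *P2ry13* and *P2ry14* were higher with Ac-LDL in every replicate pair, and *P2ry12* was at the detection limit. The members were chosen with results of this comparison known, so that the differences between Ac-LDL and control are given for them as a description without a test. The *P2ry13* probe (ILMN_2640346) had a level of 4.84, 4.96, 5.88 and 6.29 in control replicates 1 to 4 and of 5.82, 5.99, 6.38 and 6.73 in Ac-LDL replicates 1 to 4. On each slide both Ac-LDL arrays lay above both control arrays, but the control arrays of slide 2 reached into the range of the Ac-LDL arrays of slide 1, so that the groups overlapped. From 5.49 ± 0.71 in control to 6.23 ± 0.41 with Ac-LDL (means ± SD, n = 4 each), there was a log2 difference of 0.74 (standard error 0.32), or 1.67-fold. The difference within the pairs of the same replicate number was 0.98, 1.03, 0.51 and 0.44.

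The *P2ry13* probe was dim in the controls of slide 1. As deposited, before any correction, its mean bead intensity there was 54.4 ± 2.58 (standard error over 38 beads) and 52.3 ± 2.24 (standard error over 44 beads), against a median over all probes of 45.4 and 42.8 on the same arrays. The matching Ac-LDL arrays gave 73.9 ± 3.04 and 82.8 ± 3.59 (standard errors over the beads). On slide 2 the controls gave 88.9 and 112.1, and the Ac-LDL arrays 112.5 and 125.1. All 8 arrays passed the detection limit, with the highest detection p-value, 0.0278, in control replicate 1. With an offset of 50 in place of 16 the log2 difference was 0.44, and without background correction it was 0.50.

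*P2ry14* was measured by a pair of probes at bases 1691 and 1607 of its transcript. The brighter probe (ILMN_1219200) had a level of 7.97, 8.40, 9.28 and 9.08 in control replicates 1 to 4 and of 8.93, 9.20, 9.40 and 9.44 with Ac-LDL. The other (ILMN_3154419) had 6.52, 6.91, 7.83 and 7.69 in control and 7.27, 7.58, 8.11 and 8.01 with Ac-LDL. By both probes each Ac-LDL array was above the controls of its own slide, and the groups overlapped across slides as they did for *P2ry13*. The log2 difference was 0.56 (standard error 0.26, 1.47-fold) for the brighter probe, from 8.68 ± 0.60 to 9.24 ± 0.23 (SD, n = 4 each). It was 0.50 (standard error 0.29, 1.42-fold) for the other, from 7.24 ± 0.63 to 7.74 ± 0.39 (SD, n = 4 each). The pair differences ran from 0.12 to 0.96 and from 0.27 to 0.74. Control replicate 1 was the lowest array for both probes, and the log2 differences were 0.32 and 0.26 without it. With any 1 array left out they ran from 0.32 to 0.76 and from 0.26 to 0.70. Such a fit leaves the slides unbalanced between the groups, so that the slide difference enters it. The remaining *P2ry14* probe (ILMN_3075340), placed at base 312 of the transcript, was detected on 0 arrays.

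*P2ry12* was at the detection limit. Its brighter probe (ILMN_2840082) gave deposited intensities of 45.3, 40.8, 57.1 and 67.5 in control replicates 1 to 4 and of 44.1, 42.6, 50.4 and 64.2 with Ac-LDL. It was detected on 3 arrays, control replicates 3 and 4 and Ac-LDL replicate 4, all on slide 2. In a fit of all 45281 probes without the detection filter, its log2 difference between Ac-LDL and control was -0.02 (standard error 0.25). The second *P2ry12* probe was detected on 0 arrays.

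Other genes within 500 kb of the *P2ry13* start were looked up by their RefSeq position. The pseudogene *Gm8276* was detected on 8 arrays and had a log2 difference between Ac-LDL and control of -0.05 (standard error 0.16). *Clrn1*, *Med12l*, *Gpr171*, *F630111L10Rik* and *Igsf10* were detected on 0 arrays.

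**Figure D2:**
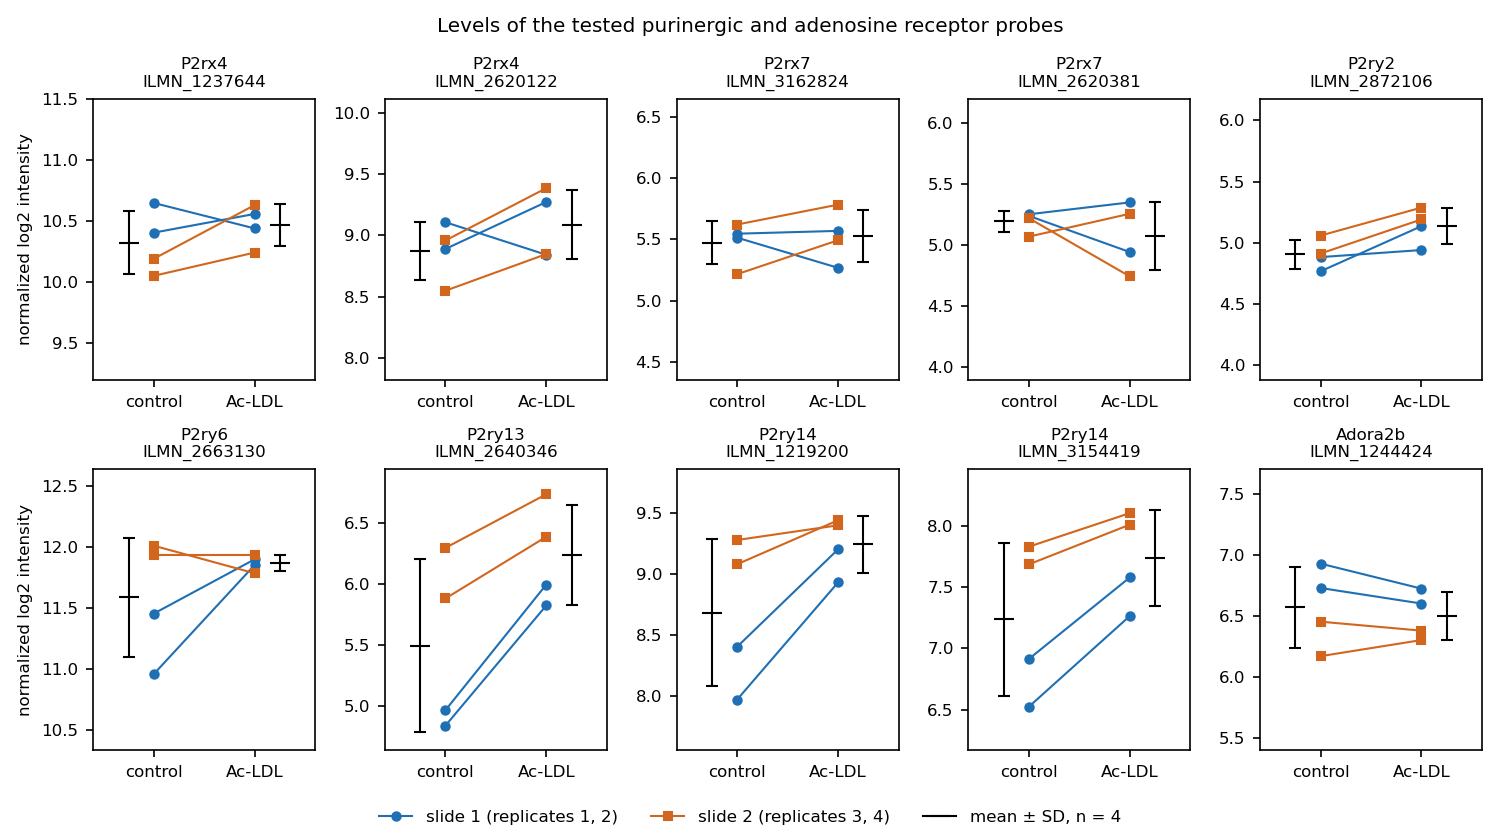
Normalized log2 intensity of the 10 tested probes of the purinergic and adenosine receptor genes on the 8 arrays, with control on the left and Ac-LDL on the right of each panel and a line joining arrays of the same replicate number. Blue circles are slide 1, orange squares slide 2, and black bars the mean ± SD of 4 arrays. The panels share 1 span of the axis but not its position. All 4 lines slope upwards for *P2ry13*, both *P2ry14* probes and *P2ry2*.

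Of the receptors for uracil nucleotides and ATP, *P2ry2* was higher with Ac-LDL in all 4 pairs and *P2ry6* on slide 1. *P2ry6*, the gene of the UDP receptor, was measured by 1 bright probe (ILMN_2663130). Its level was 10.96, 11.46, 12.01 and 11.93 in control replicates 1 to 4 and 11.85, 11.90, 11.79 and 11.93 with Ac-LDL. The Ac-LDL arrays lay close together, between 11.79 and 11.93, whereas the controls of slide 1 were lower than those of slide 2, and control replicate 1 was the lowest array. The log2 difference of 0.28 (standard error 0.20) was made up of 0.67 on slide 1 and -0.11 on slide 2. It was 0.15 with median centring in place of quantile normalization. With 1 array left out, which unbalances the slides, it ran from 0.07 (without control replicate 1) to 0.42.

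The detected *P2ry2* probe (ILMN_2872106), for the receptor of ATP and UTP, had a level of 4.77, 4.88, 4.91 and 5.06 in control and of 5.13, 4.94, 5.19 and 5.29 with Ac-LDL. Every pair was higher with Ac-LDL, by 0.06 to 0.37. The mean went from 4.90 ± 0.12 to 5.14 ± 0.15 (SD, n = 4 each), a log2 difference of 0.23 (standard error 0.11). This probe was close to background, with deposited intensities between 50.8 and 63.5 and detection p-values up to 0.0438, and the difference was 0.11 with an offset of 50. The second *P2ry2* probe, at base 129 of the transcript, was detected on 0 arrays.

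The P2X channel genes *P2rx7* (chr5:122643927-122692336) and *P2rx4* (chr5:122707518-122729739) are neighbours on chromosome 5, and their detected probes showed no common direction with Ac-LDL. They encode related subunits, and 1 probe of each covers the same stretch of related coding sequence, shown here with the 12-base run that both contain in capitals because it is the longest run shared by any *P2rx4* and *P2rx7* probe.
P2rx4 ILMN_2620122: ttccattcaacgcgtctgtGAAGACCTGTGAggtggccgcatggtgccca
P2rx7 ILMN_2620381: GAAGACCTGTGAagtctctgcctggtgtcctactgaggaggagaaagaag
*P2rx4* was bright on all 8 arrays. Its brighter probe (ILMN_1237644) had a level of 10.41, 10.65, 10.19 and 10.05 in control and of 10.56, 10.44, 10.63 and 10.24 with Ac-LDL, and the printed probe 8.89, 9.11, 8.96 and 8.55 in control and 9.27, 8.84, 9.39 and 8.85 with Ac-LDL. By both probes Ac-LDL was higher in 3 of 4 pairs and lower in pair 2. The log2 differences were 0.14 (standard error 0.14) and 0.21 (standard error 0.16). With median centring they were 0.00 and 0.08.

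*P2rx7* had 5 probes, of which 2 were tested, 1 was detected on 1 array and 2 on 0 arrays. The level of ILMN_3162824 was 5.51, 5.55, 5.22 and 5.62 in control and 5.27, 5.57, 5.49 and 5.78 with Ac-LDL. That of the printed probe ILMN_2620381 was 5.25, 5.24, 5.07 and 5.22 in control and 5.35, 4.94, 5.26 and 4.74 with Ac-LDL, and it was detected on 7 arrays, with Ac-LDL replicate 4 missing the limit. The annotation gives these probes different *P2rx7* transcripts. They went opposite ways, with log2 differences of 0.05 (standard error 0.13) and -0.12 (standard error 0.14), both within the spread of the arrays. The direction of the first turned with median centring, to -0.01. The probe detected on 1 array and 1 of the undetected probes are printed to show which parts of the *P2rx7* transcripts, from base 350 and from base 1820 of those they were designed on, gave no signal above the negative controls on most arrays.
P2rx7 ILMN_3144200: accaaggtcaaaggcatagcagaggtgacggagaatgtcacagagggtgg
P2rx7 ILMN_1216885: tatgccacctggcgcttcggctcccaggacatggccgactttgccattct
Their deposited intensities were between 42.5 and 52.0 and between 33.5 and 39.7.

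Of the adenosine receptor genes and *Entpd1*, *Adora2b* was the detected member. *Adora2b*, which encodes an adenosine receptor coupled to cyclic AMP production, had a level of 6.73, 6.93, 6.17 and 6.46 in control replicates 1 to 4 and of 6.60, 6.73, 6.30 and 6.38 with Ac-LDL. Ac-LDL was lower in 3 of 4 pairs, by at most 0.20, and the groups overlapped. The log2 difference was -0.07 (standard error 0.17). With 1 array left out, which unbalances the slides, it ran from -0.20 to 0.05, the latter without control replicate 2. The single *Adora2a* probe, for the other receptor of this kind, had deposited intensities of 39.1 to 50.1, and both *Entpd1* probes lay between 29.9 and 41.1. With detection p-values of at least 0.0908 and 0.410 these genes were not measurable above background on any array, which does not show that they were not expressed.

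**Figure D3:**
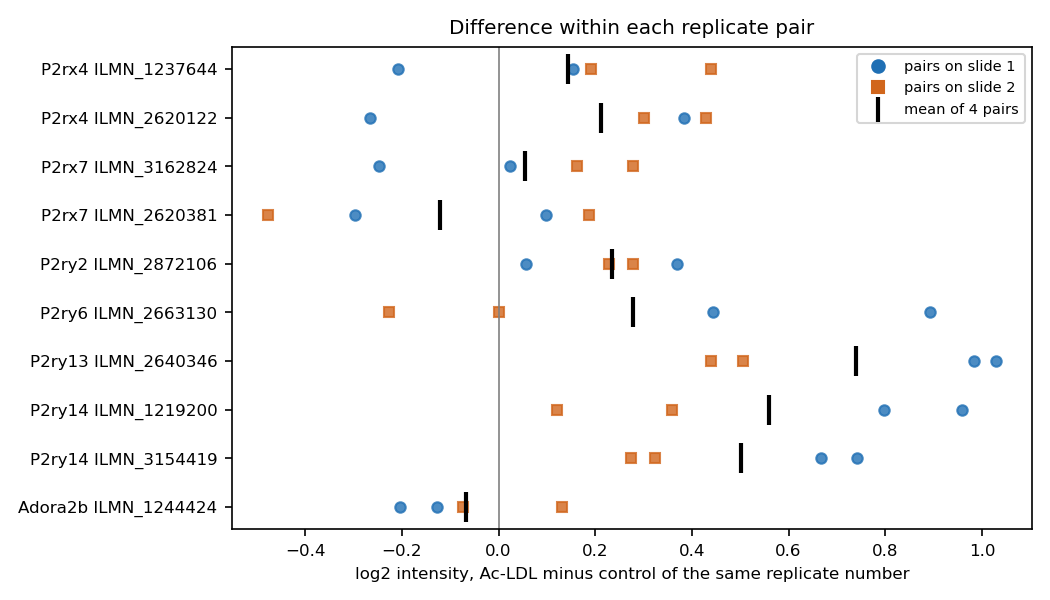
Difference in normalized log2 intensity between the Ac-LDL and the control array of the same replicate number for the 10 tested probes. Circles are pairs on slide 1, squares pairs on slide 2, vertical bars the mean of 4 pairs, and the grey line marks 0. The slide 1 pairs of *P2ry13*, *P2ry14* and *P2ry6* lie to the right of their slide 2 pairs, and *P2ry13* has its lowest pair at 0.44.

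Counted over the members, 4 of 10 probes, for 3 genes (*P2ry2*, *P2ry13* and *P2ry14*), were higher with Ac-LDL in all 4 pairs, against 11.5% of all 17122 tested probes, and 0 were lower in all 4, against 10.3%. The same 4 probes had both Ac-LDL arrays above both controls on each slide, which 6.06% of all tested probes had, and 0 of 10 had Ac-LDL and control arrays that did not overlap, against 3.8% of all. The median log2 difference was 0.22 over the 10 member probes and 0.00 over all tested probes. With limma's moderated test without a block, 7 probes (0.0409%) were called at an adjusted p under 0.05, and 0 of them were member probes. At an unadjusted p under 0.05, limma found 5.2% of all probes and 1 member probe, that of *P2ry13*. The methods' t-test found 6.07% and 1 other member probe, the detected one of *P2ry2*. A block on the replicate number called 0.444%, 76 probes, 1 of them the *P2ry13* probe, and a block on the slide called 0.321%, 0 of them member probes. Nothing is read from these counts, since the members were chosen on this comparison.

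The cluster genes and *Adora2b* also differed between the slides. Each slide held 2 Ac-LDL and 2 control arrays, so that a comparison of slides with treatment in the model does not use the contrast on which the members were chosen. It called 4042 of 17122 probes (23.6%), 11.7% higher on slide 2 and 11.9% lower. Among the members it called 4 of 10 probes, for 3 of 7 genes. This fit takes the 4 arrays of a slide as independent, although they come from 2 replicate pairs that share deviations, so that its p-values may be too small. With each pair averaged to 1 value, 2 per slide, 13.9% of all probes and the same 4 member probes were called (limma adjusted p of 0.0132 for *P2ry13*, 0.0221 and 0.0141 for *P2ry14* and 0.0483 for *Adora2b*). Tests of the slides given below are from the first fit, and calls that averaging ended are named.

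*P2ry13* was higher on slide 2, with means of 5.40 ± 0.59 on slide 1 and 6.32 ± 0.35 on slide 2 (SD, n = 4 each), a log2 difference of 0.92 (standard error 0.14, adjusted p = 0.00242 with limma). The difference was 1.18 between the control arrays of the slides and 0.65 between the Ac-LDL arrays, and over all arrays it was 0.56 with an offset of 50. *P2ry14* was higher on slide 2 by 0.67 (standard error 0.15, adjusted p = 0.0113 with limma) with the brighter probe and by 0.84 (standard error 0.13, adjusted p = 0.00216 with limma) with the other. With the second of these probes the slides did not overlap, at 6.52 to 7.58 on slide 1 and 7.69 to 8.11 on slide 2. For *P2ry12*, 3 detections on slide 2 against 0 on slide 1 went with a log2 difference of 0.58 (standard error 0.15, adjusted p = 0.0722 with limma) in the fit without the detection filter, which did not pass the threshold. *Gm8276* differed by 0.33 (adjusted p = 0.0681 with limma).

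*Adora2b* was lower on slide 2 by the same comparison. Its level was between 6.60 and 6.93 on slide 1 and between 6.17 and 6.46 on slide 2, and the slides did not overlap. The log2 difference was -0.42 (standard error 0.096, adjusted p = 0.0129 with limma). Slides that did not overlap were found for 2 of 10 member probes and for 24.2% of all tested probes. *P2ry6* (0.37, standard error 0.16, adjusted p = 0.122 with limma), *P2ry2* (0.18, standard error 0.083, adjusted p = 0.141 with limma) and both probes of *P2rx4* and of *P2rx7* (-0.23 to 0.05) did not pass the threshold.

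**Figure D4:**
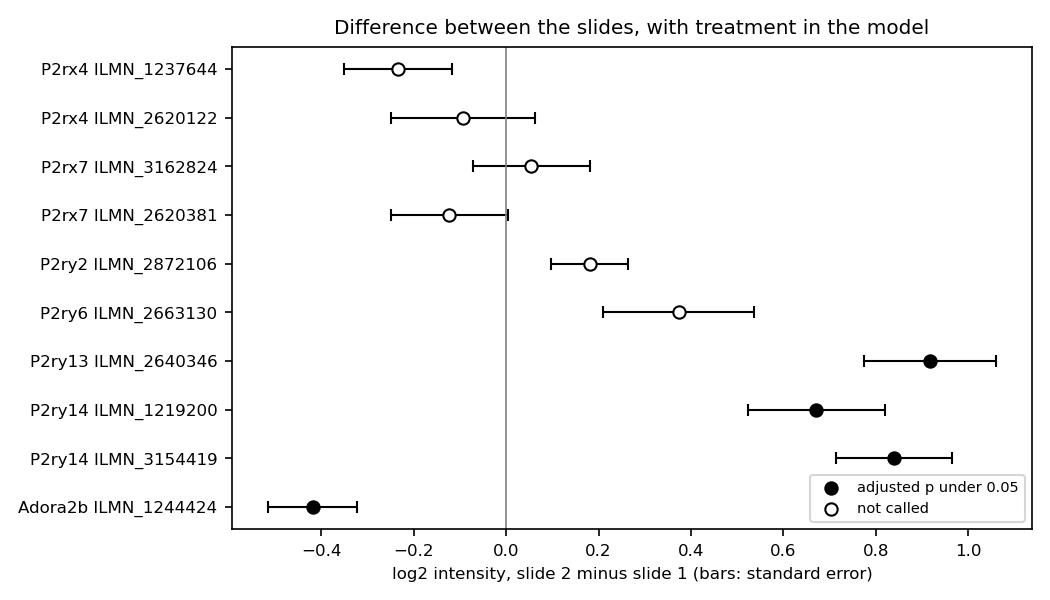
Difference in normalized log2 intensity between slide 2 (replicates 3 and 4) and slide 1 (replicates 1 and 2) for the 10 tested probes, from the model with treatment. Bars are the standard error, filled points have a limma adjusted p under 0.05, and the grey line marks 0. *P2ry13* and both *P2ry14* probes lie to the right, at 0.67 to 0.92, and *Adora2b* to the left, at -0.42.

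Whether the Ac-LDL difference itself depended on the slide was tested by the interaction of treatment and slide. The Ac-LDL difference of *P2ry13* was 1.01 on slide 1 and 0.47 on slide 2, that of the brighter *P2ry14* probe 0.88 and 0.24, and that of *P2ry6* 0.67 and -0.11. The differences were smaller on slide 2, where the control levels of these genes were higher. Since the control level is subtracted in each difference, these observations are not independent. The interaction did not pass the threshold. It was -0.53 for *P2ry13* (standard error 0.24, adjusted p = 0.595 with limma; -0.23 with an offset of 50 and -0.28 without background correction), -0.64 for *P2ry14* (standard error 0.23, adjusted p = 0.549 with limma) and -0.78 for *P2ry6* (standard error 0.22, adjusted p = 0.501 with limma). Of all 17122 probes, 0 (0%) were called for it with limma. At an unadjusted p under 0.05 there were 1435 probes (8.38%), with *P2ry6* and the brighter *P2ry14* probe among them.

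Some macrophage markers moved with the slides too. All 7 markers (*Adgre1*, *Csf1r*, *Cd68*, *Itgam*, *Lyz2*, *Cd14* and *Mertk*) were tested, and 4 were higher on slide 2, *Adgre1* by 1.19, *Itgam* by 1.01, *Csf1r* by 0.79 and *Cd14* by 0.58 on the log2 scale (limma adjusted p between 0.00114 and 0.0387), with 0 lower; averaging the pairs ended the call of *Cd14*. *Lyz2* (0.14), *Cd68* (0.06) and *Mertk* (0.38) were not called (limma adjusted p of 0.208, 0.670 and 0.0835). The summed intensity of the 7 markers, normalized and on the linear scale, was 35863 to 39164 on slide 1 and 41298 to 44229 on slide 2. *Lyz2* and *Cd68* were the brightest of them and made up most of this sum. Between treatments the sums overlapped, at 35863 to 44229 in control and 36972 to 42954 with Ac-LDL, and 0 of 7 markers were called without a block. Of the 7 markers, 4 had a positive and 3 a negative difference with Ac-LDL. *Mertk*, a receptor gene for dying cells, had a log2 difference of 0.56 (standard error 0.19, limma adjusted p = 0.817 without a block and 0.0364 with the replicate block). *Cd14* went the other way, by -0.48 (standard error 0.26, limma adjusted p = 0.960 without a block and 0.0808 with the replicate block). Its pair differences ran from -0.70 to -0.31. Of 7 fibroblast or mesothelium markers 6 were tested and *Msln* was dim. Their sum was 14063 to 16356 on slide 1 and 11842 to 14420 on slide 2, and 11842 to 16356 in control and 12973 to 14420 with Ac-LDL. *Col1a1* was lower on slide 2 by 0.41 (adjusted p = 0.0199 with limma). Of the other tested markers none was called, with *Col3a1* at 0.29 and the rest between -0.18 and -0.01. The part of either cell type in the differences of the receptor genes was not tested.

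Markers of other cell types were mostly not detected. Of the markers on the array, 1 of 4 for B cells (*Ms4a1*), 1 of 5 for T cells (*Lck*), 1 of 5 for neutrophils (*S100a8*), 2 of 5 for dendritic cells (*Zbtb46* and *Itgax*), 1 of 4 for platelets (*Gp9*), 0 of 4 for eosinophils and 0 of 4 for mast cells were tested. *Cd79b*, *Pax5*, *Cd3d*, *Cd3g*, *S100a9*, *Flt3*, *Xcr1*, *Ppbp*, *Gp6*, *Epx* and *Cpa3* were detected on 0 arrays. The summed intensity over the tested markers on slide 1 and slide 2 was 24.8 to 35.4 and 25.8 to 29.8 for B cells, 31.5 to 48.7 and 23.6 to 31.0 for T cells, 61.6 to 76.9 and 82.3 to 88.2 for dendritic cells and 25.4 to 35.9 and 22.6 to 35.7 for platelets. For neutrophils, *S100a8* alone was bright and gave 553 to 617 in control and 646 to 721 with Ac-LDL, without overlap and higher in 4 of 4 pairs (log2 difference of 0.24, adjusted p = 0.845 with limma), while 4 of 5 neutrophil markers were detected on 0 arrays. The part of these cells was not tested either. *Itgax* was higher on slide 2 by 0.58 (adjusted p = 0.00293 with limma) and *Lck* lower (log2 difference of -0.54, adjusted p = 0.0234 with limma).

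The other genes of nucleotide signalling on the array were taken in 4 lists, of 59 genes with 41 tested. None passed limma's test of Ac-LDL against control, with 0 of 41 called without a block or with either block, 4 at an unadjusted p under 0.05 and 2 by the methods' t-test. The median log2 difference over the 41 genes was 0.07. In the comparison of slides 11 of 41 (26.8%) were called, beside 23.6% of all probes, and 7 with the pairs averaged.

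Among 14 other receptor genes of the family and its neighbours, 8 were detected on 0 arrays (*P2rx1*, *P2rx2*, *P2rx3*, *P2ry4*, *P2ry10*, *Gpr17*, *Gpr34* and *Gpr171*), *Adora3* was dim and 5 were tested. The median log2 difference with Ac-LDL was -0.01. The log2 difference was -0.21 (standard error 0.14) for *P2ry1*, the gene of another ADP receptor, and 0.10 (standard error 0.13) for *P2rx6*. *P2rx5*, a channel subunit gene, was lower on slide 2 (log2 difference of -0.60, adjusted p = 0.00167 with limma), at 6.46 to 6.60 on slide 1 and 5.79 to 6.04 on slide 2.

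Among 20 genes for enzymes and transporters of nucleotides 16 were tested, with a median log2 difference of 0.08 with Ac-LDL, 10 higher and 6 lower. *Nt5e*, the gene of CD73, had a difference of -0.33 (standard error 0.16), *Slc29a3*, a nucleoside transporter gene, of -0.29 (standard error 0.26), and *Ada*, the gene of adenosine deaminase, of 0.27 (standard error 0.11). On slide 2, *Panx1*, whose product is a channel that releases ATP, was higher (0.28, adjusted p = 0.0471 with limma). *Slc29a3* (-0.75), *Enpp4* (-0.51), *Entpd2* (-0.40) and *Entpd7* (-0.32) were lower, with limma adjusted p between 0.00182 and 0.0319. The last 3 encode nucleotide hydrolases. Averaging the pairs ended the calls of *Panx1*, *Entpd2* and *Entpd7* and called *Slc28a2*, a nucleoside transporter gene, lower (-0.51). *Entpd3*, *Entpd8*, *Enpp3* and *Slc29a2* were detected on 0 arrays.

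Of 9 genes listed as related to P2X7 signalling, 6 were tested, with a median log2 difference of 0.05. *Nlrp3*, the inflammasome sensor gene, and *Il1b* were detected on 0 arrays and *Nek7* was dim. *Il1a* had a difference of 0.37 (standard error 0.14), *Casp4*, the gene of an inflammatory caspase, of -0.33 (standard error 0.14) and *Pycard*, the gene of the inflammasome adaptor, of 0.27 (standard error 0.22). *Pycard* and *Gsdmd*, the gene of the pore protein gasdermin D, were higher on slide 2 by 0.54 and 0.49 (limma adjusted p of 0.0208 and 0.0200), the first of which was not called with the pairs averaged. Of 16 genes of G protein and cyclic AMP signalling, 14 were tested, with a median of 0.09, and *Gnai3* and *Nr4a1* were detected on 0 arrays. The adenylyl cyclase genes *Adcy7* and *Adcy3* had differences of 0.34 (standard error 0.25) and 0.31 (standard error 0.15), and *Pde4d*, the gene of a cyclic AMP phosphodiesterase, of 0.28 (standard error 0.12). *Adcy7* (0.66), *Gnaq* (0.46) and *Gnai2* (0.28) were higher on slide 2 (limma adjusted p between 0.00614 and 0.0481), with *Gnai2* not called when the pairs were averaged.

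The genes whose levels followed those of *P2ry13* most closely over the 8 arrays, of 12422 other symbols by their brightest tested probe, were *Fos*, a subunit of AP-1, with a Pearson r of 0.991, *Asah2*, a ceramidase gene, with 0.990, and the gene annotated as *D6Wsu176e* with 0.988. The r of *P2ry13* was 0.93 with each *P2ry14* probe, 0.86 with *P2ry2*, 0.82 with *P2ry6* and -0.70 with *Adora2b*. These values describe 8 points that share the slide difference and the replicate pairing.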

How the data were processed

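Per the labels, RNA was extracted with Trizol, labelled with biotin and hybridized to Illumina bead arrays, and the submitters' processing notes name BeadStudio. The authors deposited, for each probe and array, the mean bead intensity on the linear scale (neither background-subtracted nor normalized), its standard error over the beads, the count of beads and a detection p-value. Their normalization in GeneSpring GX was not used here. Intensities were processed with limma 3.58.1 in R 4.3.3 (neqc: normexp with negative controls inferred from the detection p-values, offset 16, quantile normalization, log2). The offset shrinks the differences of dim probes. Tests covered probes detected (p-value of 0.05 or less) on 4 or more of the 8 arrays (17122 probes, 12423 symbols).

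Ac-LDL and control were compared by limma's moderated test with 2 groups, with Benjamini-Hochberg adjustment over all tested probes and calls at an adjusted p under 0.05. The slide term was tested with treatment in the model, and the interaction of treatment and slide in a further model. Precision is limited by the 4 arrays of each group. Deviations of same-numbered Ac-LDL and control arrays from their group means correlated across probes (r = 0.579, 0.479, 0.468 and 0.629 for replicates 1 to 4). Different numbers on the same slide correlated at 0.188 to 0.447, and these deviations include the slide difference. In the slide comparison with a random replicate block, the correlation within pairs was estimated at 0.062 over the tested probes. The replicate numbers were taken as pairs in an alternative fit. The members and lists were chosen with earlier results of these data known. Named genes were all members, called genes and up to 3 genes with the largest difference in each list, genes within 500 kb of *P2ry13*, and the 3 symbols most correlated with it, and 1 gene that this rule names is not reported here. A gene with several probes is given by the brightest tested one, and symbols are those of the deposited annotation or their current names. Probe coordinates of the deposited annotation name no build and were not used; gene and promoter positions are RefSeq's (GRCm38.p6). *P2ry6* and *Adora2a* have no entry in the promoter table. The treatment and interaction terms were also run on simulated data, with noise drawn independently for each array and no deviations shared within replicate pairs. The test of the slide term was not simulated.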

Additional observations from a re-analysis of the deposited data

How the results depend on the processing

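Called probes for Ac-LDL against control numbered 7 without a block, 26 with median centring, 15 with a trended prior, 76 with the replicate block, 55 with the slide block, and 0 without the detection filter (2290 at an unadjusted p under 0.05) and by the methods' t-test (1039 unadjusted). Leaving out 1 array gave 0 to 15. The count was 0 without Ac-LDL replicate 1, 2 or 3 or control replicate 4 (711 to 1137 at an unadjusted p under 0.05), 1 without Ac-LDL replicate 4 and 15 without control replicate 2. The replicate block called 1 member gene, *P2ry13*, whose difference stayed 0.74; in every other setting run 0 were called. The block changed no call in the 4 lists, where 0 genes were called in every setting. The differences of *P2ry13* (0.44 to 1.00) and *P2ry14* (0.32 to 0.76 and 0.26 to 0.70) did not change sign. Calls for the slides went from 4042 to between 2344 and 4496 with 1 array left out (2344 without control replicate 3, 2483 without control replicate 2, 2520 without control replicate 1, 2598 without control replicate 4). They were 2376 with each replicate pair averaged and 3649 with a random replicate block, both chosen after seeing the data, and 3 member genes were called in every setting except without Ac-LDL replicate 3, when *P2rx4* made 4 (-0.35). With median centring *P2ry6* passed (0.41, limma adjusted p = 0.0465) and *Adora2b* did not (-0.32, limma adjusted p = 0.0582); without the filter the brighter *P2ry14* probe did not (0.67, limma adjusted p = 0.0534). Interaction calls, 0 in the fit reported, were 5 without background correction, 5 with an offset of 50, 6 with median centring and 5 with a trended prior. *P2rx7* (ILMN_3162824) turned to -0.0092 with median centring. With 1 array left out, signs turned for small differences: *P2rx7* ILMN_3162824 (treatment -0.032 to 0.142, slide -0.041 to 0.167) and ILMN_2620381 (interaction -0.299 to 0.213), *P2ry2* (interaction -0.058 to 0.139), *P2rx4* ILMN_2620122 (slide -0.232 to 0.021) and *Adora2b* (treatment -0.202 to 0.051). The cause of these changes was not tested. Probes near background, *P2ry13* on slide 1, *P2ry2* and *P2rx7* among them, limit what these arrays can show.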
